A study of Mus musculus with 12 samples.

Results

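The 10 genes described here encode chaperones of the endoplasmic reticulum (ER) and regulators of the unfolded protein response. They are Hspa5, Hsp90b1, Calr, Canx, Pdia3, Pdia4, Atf4, Ddit3, Xbp1 and Herpud1, and were chosen by name from the 48526 genes listed in the deposited tables of both ages. The choice was made with earlier results of these data known. All 10 matched 1 gene each, and all 10 reached a group mean of 1 FPKM, as did 9846 genes in all, which were tested. FPKM is the fragment count scaled to transcript length and to the mapped fragments of the library, so that levels can be compared between genes of different length.

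RNA was sequenced from the cortex of 12 untreated mice on a C57Bl/6 background, 3 biological replicates in each of 4 groups. The groups were non-transgenic controls and TAU58/2 transgenic mice, each at 3 months and at 10 months of age. TAU58/2 mice carry human tau with the P301S mutation under a neuronal Thy1 promoter, so the transgene acts in neurons while the tissue measured holds all cortical cell types. The comparisons ask whether ER folding and stress genes differ with the transgene label at either age, whether the label matters more at one age, and how the genes differ between ages under the same label.

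Secretory and membrane proteins fold in the ER. Hspa5, also called BiP, holds unfolded chains in the lumen and keeps the stress sensors inactive. When unfolded protein builds up, the sensor Atf6 is cleaved, the sensor Ern1 splices Xbp1 mRNA, and the sensor Eif2ak3 slows translation and favours synthesis of Atf4, which in turn raises Ddit3. Atf6 and spliced Xbp1 act on promoters that hold ER stress response elements. ER stress has been studied in tau disease because phosphorylated forms of its sensors were described in neurons with tau tangles.

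The promoter sequences are shown first because most of these genes are textbook targets of the same element. The ER stress response element, ERSE, is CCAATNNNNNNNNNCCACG, in which N is any base. It was searched on both strands in the 250 bases before the RefSeq start of each gene (RefSeq, build GRCm38.p6), and all 10 genes had a window. The exact element was found in 4 of the 10 windows against 37 of all 32851 windows, 0.113%. As most of these genes are textbook targets, matches in them were foreseeable and the count is no test. The 4 genes were Hspa5, Hsp90b1, Calr and Canx, which encode the chaperones of the set. The sites below are written 5′ to 3′ in the direction of the element, with its conserved ends in capitals.
Hspa5: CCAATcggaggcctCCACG
Hsp90b1, far site: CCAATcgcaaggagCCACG
Hsp90b1, near site: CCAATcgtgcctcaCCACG
Calr: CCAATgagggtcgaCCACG
Canx: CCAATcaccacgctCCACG
The Hspa5 site lies at chr2:34772025-34772043 on the plus strand, from 65 to 47 bases before the RefSeq start. The Hsp90b1 sites lie at chr10:86705638-86705656 on the minus strand and chr10:86705533-86705551 on the plus strand. Those of Calr and Canx lie at chr8:84847075-84847093 on the plus strand and chr11:50325800-50325818 on the minus strand. An earlier Hspa5 transcript start in GENCODE M21 (GRCm38) puts 120 bases of the Hspa5 window, the site included, inside its first exon. Annotated exons also cover the whole Pdia3 window and 181 bases of the Ddit3 window, which include the sites of both genes given next.

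Allowing 1 mismatch in the CCACG end added Pdia3, Pdia4 and Ddit3, and 1 more site in Hsp90b1, so that 7 of the 10 windows held a match against 0.904% of all windows. The mismatch lies among the last 5 capitals.
Pdia3: CCAATcggcggctgCCACA
Pdia4: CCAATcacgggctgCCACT
Ddit3: CCAATcagaaagcgGCACG
Herpud1 held the related element ERSE-II, ATTGGNCCACG, which occurred in 10 windows in all, 0.0304%.
Herpud1: ATTGGgCCACG
This site lies at chr8:94386377-94386387 on the plus strand. The Herpud1 window also held TTGCATCA, a form of the element bound by Atf4 with a C/EBP partner (CARE), present in 0.791% of windows. TGACGTGG, the core of the element bound by spliced Xbp1 (UPRE), was in none of the 10 windows and in 0.563% of all. The box bound by NF-Y, CCAAT, was in 9 of the 10 windows, all but Xbp1, against 33.8% of all. ERSE and ERSE-II each contain this box, so those matches overlap it. A match describes letters in these windows only.

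To show the elements in their surroundings, 3 windows follow, with ERSE, ERSE-II and CARE matches in capitals and bases inside annotated exons left out. They read 5′ to 3′ along the gene, so that an element on the other strand appears as its reverse complement. They cover chr8:84846935-84847181 (Calr, minus strand), chr11:50325674-50325923 (Canx, minus strand) and chr8:94386179-94386428 (Herpud1, plus strand).
Calr: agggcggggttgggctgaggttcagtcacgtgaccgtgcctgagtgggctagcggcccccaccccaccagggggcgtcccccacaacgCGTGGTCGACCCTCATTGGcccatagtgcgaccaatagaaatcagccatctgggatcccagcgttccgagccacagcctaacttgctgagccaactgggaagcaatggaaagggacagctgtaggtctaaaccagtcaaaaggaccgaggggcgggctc
Canx: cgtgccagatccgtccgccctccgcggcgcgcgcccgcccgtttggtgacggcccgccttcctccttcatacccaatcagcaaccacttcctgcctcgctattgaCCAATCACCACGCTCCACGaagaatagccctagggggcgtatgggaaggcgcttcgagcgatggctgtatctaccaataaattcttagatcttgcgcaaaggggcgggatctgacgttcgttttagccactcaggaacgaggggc
Herpud1: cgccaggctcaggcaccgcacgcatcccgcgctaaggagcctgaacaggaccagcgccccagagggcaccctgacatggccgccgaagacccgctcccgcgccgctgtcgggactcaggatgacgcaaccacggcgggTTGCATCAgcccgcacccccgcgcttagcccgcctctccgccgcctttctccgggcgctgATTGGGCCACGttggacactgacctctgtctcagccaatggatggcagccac

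**Figure D1:**
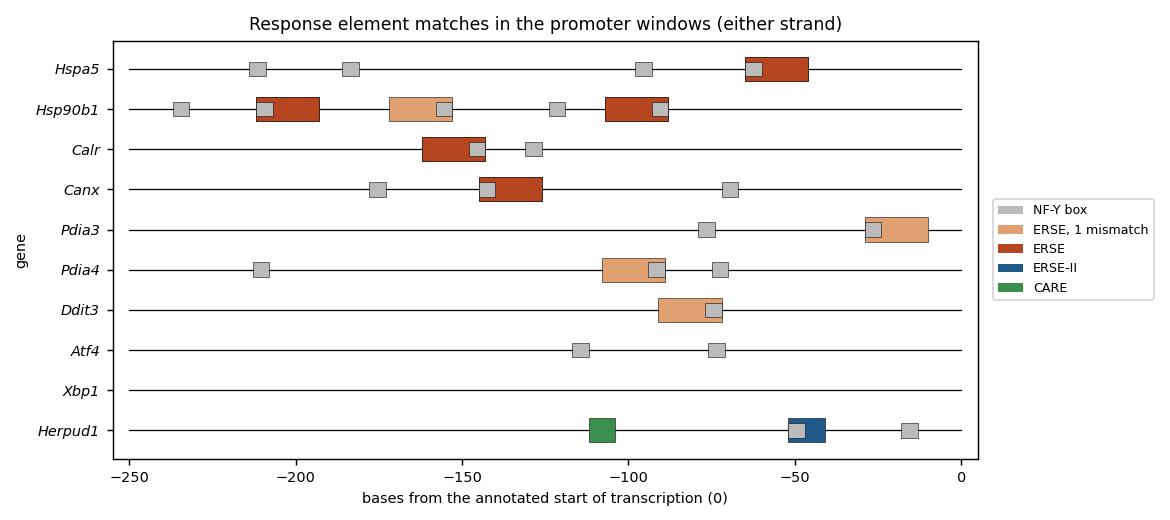
Matches to response elements in the 250 bases before the annotated start of each of the 10 genes, by distance from the start in bases, on either strand. Exact ERSE matches (dark red) are in Hspa5, Hsp90b1, Calr and Canx, matches with 1 mismatch (light) in Hsp90b1, Pdia3, Pdia4 and Ddit3, and the ERSE-II match (blue) in Herpud1, while Xbp1 has no box at all.

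Library totals ran from 125933 to 158077 FPKM, with 12828 to 13914 genes above 0. At 3 months Mapt, the tau gene, ranged from 43.3 to 47.6 FPKM under the transgenic label and from 6.64 to 12.0 FPKM in the controls, and Thy1 at 409.6 to 441 against 105 to 140.5 FPKM. Neither did so at 10 months, where levels and labels came apart. There Mapt was 42.7, 8.13 and 9.08 FPKM in controls 1 to 3 and 42.6, 12.4 and 3.31 FPKM in the libraries labelled transgenic 1 to 3, while Thy1 was 115, 314 and 176 against 172, 114 and 159 FPKM. Every direction at 10 months is therefore a difference between libraries by label. Of the marker sums for other cells, that of 6 pituitary genes was 13470 FPKM in 10-month transgenic 1 and at most 53.8 FPKM elsewhere. The sum of 5 choroid plexus genes was 730 FPKM in 3-month control 1, 303 FPKM in 3-month transgenic 3 and 439 FPKM in 10-month transgenic 1, and at most 63.5 FPKM elsewhere. The sum of 7 neuronal markers was 346 FPKM in 10-month transgenic 2 and 455 to 650 FPKM elsewhere, so neuronal transcripts were present in all libraries. Sums of 5 markers each ranged from 76.8 to 157 FPKM for astrocytes, 191 to 443 FPKM for oligodendrocytes, 39.1 to 75.8 FPKM for microglia and 2.36 to 21.1 FPKM for endothelial cells, whose receptor gene Kdr was listed at 0 in every library. Plasma cells, which are rich in ER chaperones, had a sum of at most 8.05 FPKM.

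The chaperone Hspa5 had the clearest difference of the set: at 10 months it stood lower in all 3 libraries labelled transgenic than in any control. Calr, a lectin chaperone, was the only other of the 10 whose groups did not overlap at that age, also lower. Neither passed the threshold over all genes. At 3 months no member separated the groups, as 7.98% of all genes did. In none of the comparisons did limma call a member at an adjusted p under 0.05 (Benjamini-Hochberg over 9846 genes). The background was low as well: limma called 1 gene at 10 months, 0.0102% of those tested, and 4 genes at 3 months, 0.0406%.

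Hspa5 (ENSMUSG00000026864, chromosome 2, 34771970 to 34777547, plus strand) is the Hsp70 chaperone of the ER lumen. At 10 months its level was 102, 73.8 and 84.4 FPKM in controls 1 to 3 and 45.2, 29.7 and 34.6 FPKM in the libraries labelled transgenic. The highest transgenic value lay well under the lowest control. The means were 86.7 ± 14.1 and 36.5 ± 7.94 FPKM (SD, n = 3 each), a ratio of 0.421. On the log2(FPKM + 0.1) scale the difference was −1.25 with a standard error of 0.41 and an unadjusted 95% interval from −2.16 to −0.35. Its unadjusted p in limma was 0.0115, rank 100 of 9846, and the adjusted p was 0.969. Fewer cells rich in Hspa5 and less Hspa5 RNA per cell cannot be told apart in tissue RNA.

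At 3 months Hspa5 was 45.3, 19.7 and 77.2 FPKM in the controls and 58.4, 54.9 and 52.3 FPKM in the transgenic libraries. The controls spread more widely than any other Hspa5 group and enclosed all 3 transgenic values. The difference was 0.43 on the log2 scale (SE 0.41, adjusted p = 1 in limma). The change of the genotype difference between ages was −1.68 (SE 0.57), with an unadjusted p of 0.0152 and an adjusted p of 0.987 in limma. It combines a higher level in older controls, by 1.07 (SE 0.41, unadjusted p = 0.0255, adjusted p = 0.994 in limma), with a difference of −0.62 (SE 0.41) between older and younger transgenic libraries. Without 3-month control 2, the lowest Hspa5 library, the difference between ages in controls was 0.54. In the transgenic libraries the 3 values at 10 months all lay under the 3 at 3 months, while the controls of both ages overlapped.

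The 10-month Hspa5 difference kept its sign when any library was left out, from −1.42 without transgenic 1, which carries the pituitary transcripts, to −1.12 without transgenic 2, which has the lowest neuronal sum. Without control 1, whose Mapt level is high, it was −1.13. Adjusted p-values in limma over these fits ranged from 0.673 to 1. Transgenic 2 and 3, whose Mapt levels are low at 12.4 and 3.31 FPKM, stay in the fit without control 1. Leaving out 1 library therefore does not test the label mismatch. The part of the label mismatch, of the pituitary transcripts and of the neuronal markers in this difference was not tested. In the authors' deposited table Hspa5 has a fold of 0.440 at 10 months with a p of 0.0158 and a q of 0.854, and a fold of 1.61 at 3 months with a q of 0.904.

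**Figure D2:**
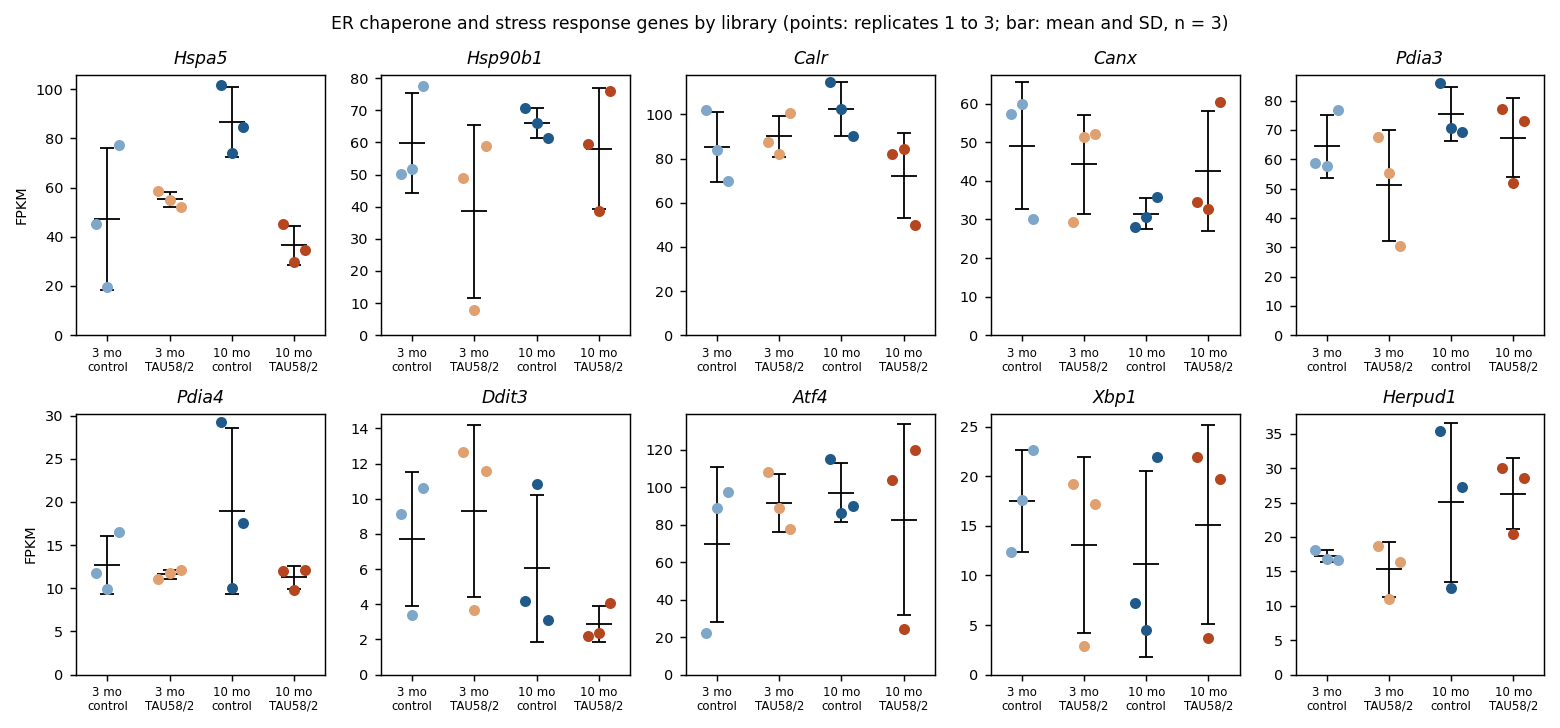
FPKM of the 10 genes in each library, by age and genotype label. Points are replicates 1 to 3 and bars show mean and SD (n = 3). For Hspa5 the 10-month transgenic libraries (29.7 to 45.2 FPKM) lie under the 10-month controls (73.8 to 102 FPKM), and of the other genes only Calr has separate groups at that age.

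Calr (ENSMUSG00000003814, chromosome 8, 84841850 to 84846934, minus strand) encodes calreticulin, the soluble lectin that binds newly made glycoproteins and stores calcium in the ER. At 10 months it stood at 115, 103 and 90.0 FPKM in the controls and at 82.1, 84.4 and 49.98 FPKM in transgenic 1 to 3. The groups did not overlap, but control 3 and transgenic 2 were close. The means of 102 ± 12.4 and 72.2 ± 19.2 FPKM give a ratio of 0.705, and the log2 difference was −0.54 (SE 0.23, unadjusted p = 0.0419, adjusted p = 0.969 in limma). Without transgenic 3 it was −0.29, the value closest to 0 over the libraries left out.

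Lower, non-overlapping groups at 10 months were thus found for 2 of the 10 genes, against 3.89% of all genes tested, and in either direction for 8.26%. At 3 months Calr was 102, 83.7 and 69.96 FPKM in controls and 87.4, 82.3 and 100.5 FPKM in transgenic libraries, which overlap fully. Calr had the smallest residual SD of the 10 genes, 0.28 on the log2 scale, against a median of 0.73 over all genes. Its highest library was 2.30 times its lowest, after 2.15 for Canx. A Calr pseudogene, Calr-ps, shares 1.93% of its 31-base words, so a small part of its reads could be assigned to either.

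Canx (ENSMUSG00000020368, chromosome 11, 50293961 to 50325673, minus strand) encodes calnexin, the membrane-bound counterpart of calreticulin. Its level at 10 months was 28.0, 30.7 and 35.9 FPKM in controls and 34.4, 32.6 and 60.4 FPKM in transgenic libraries. Only transgenic 3 stood above every control. The log2 difference of 0.38 (SE 0.35) fell to 0.09 without transgenic 3, so that it rests on this library. At 3 months the controls were 57.4, 59.8 and 30.2 FPKM and the transgenic libraries 29.4, 51.3 and 52.1 FPKM, so each group held 1 low library.

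Hsp90b1 (ENSMUSG00000020048, chromosome 10, 86690209 to 86705509, minus strand) encodes GRP94, the ER member of the Hsp90 family. It was even in the 10-month controls, at 70.7, 66.1 and 61.5 FPKM, and uneven in the transgenic libraries, at 59.4, 38.5 and 76.1 FPKM. The log2 difference was −0.24 (SE 0.64). At 3 months the controls were 50.1, 51.7 and 77.6 FPKM and the transgenic libraries 48.9, 7.85 and 58.8 FPKM. The value of 7.85 FPKM in 3-month transgenic 2 is the lowest of the 12 and sets most of the 3-month difference of −1.05 (SE 0.64), which was −0.13 without that library. Hsp90b1 had the widest range of the set, 9.88 between the highest and the lowest library. It shares 4.09% of its 31-base words with other genes, 2.52% with Gm25745. On the same strand it overlaps Gm25745 and Gm15344, and on the opposite strand 1810014B01Rik.

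Pdia3 (ENSMUSG00000027248, chromosome 2, 121413775 to 121438687, plus strand) encodes the disulfide isomerase ERp57, which works with calnexin and calreticulin. At 10 months it was 86.1, 70.7 and 69.3 FPKM in controls and 77.0, 52.0 and 73.1 FPKM in transgenic libraries, and the groups overlapped. The 3-month levels were 58.7, 57.6 and 76.7 FPKM in controls and 67.6, 55.3 and 30.5 FPKM in transgenic libraries, the last being the lowest of the 12. The log2 differences were −0.18 (SE 0.29) at 10 months and −0.39 (SE 0.29) at 3 months. The latter was −0.06 without 3-month transgenic 3, and the former 0.000314 without 10-month transgenic 2.

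Pdia4 (ENSMUSG00000025823, chromosome 6, 47796141 to 47813430, minus strand) encodes the isomerase ERp72. It lay between 9.74 and 12.1 FPKM in 9 of the 12 libraries. At 10 months the controls were 29.2, 10.1 and 17.5 FPKM and the transgenic libraries 12.0, 9.74 and 12.1 FPKM. Control 2 lay under 2 of the transgenic libraries. The log2 difference was −0.62 (SE 0.34, unadjusted p = 0.101, adjusted p = 0.969 in limma), with −0.24 without control 1 at the near end of the range over libraries left out. At 3 months the controls were 11.8, 9.90 and 16.5 FPKM and the transgenic libraries 11.1, 11.7 and 12.1 FPKM.

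Atf4 (ENSMUSG00000042406, chromosome 15, 80255184 to 80257541, plus strand) encodes the transcription factor of the integrated stress response, which is regulated mainly at translation. Its mRNA was 115, 86.4 and 89.8 FPKM in the 10-month controls and 103.6, 24.4 and 119.7 FPKM in the transgenic libraries. The 3-month levels were 22.2, 88.7 and 97.5 FPKM in controls and 108, 88.9 and 77.8 FPKM in transgenic libraries. Outside 10-month transgenic 2 and 3-month control 1, all values lay between 77.8 and 119.7 FPKM. Those 2 low libraries fall on opposite sides of the label, and the log2 differences were −0.52 (SE 0.66) at 10 months and 0.65 (SE 0.66) at 3 months.

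Ddit3 (ENSMUSG00000025408, chromosome 10, 127290774 to 127296288, plus strand) encodes CHOP, a transcription factor that promotes cell death in prolonged ER stress. At 10 months it was 4.16, 10.8 and 3.12 FPKM in controls and 2.20, 2.34 and 4.05 FPKM in transgenic libraries. Its 3-month levels were 9.11, 3.37 and 10.6 FPKM in controls and 12.7, 3.66 and 11.6 FPKM in transgenic libraries. The 12 values fell into a low set from 2.20 to 4.16 FPKM and a high set from 9.11 to 12.7 FPKM, and both genotype labels held high values at 3 months. The genotype differences were −0.90 (SE 0.64) at 10 months, or −0.38 without control 2, and 0.24 (SE 0.64) at 3 months. Between ages the transgenic libraries differed by −1.53 on the log2 scale (SE 0.64, unadjusted p = 0.0370, adjusted p = 0.974 in limma), and the groups overlapped. Ddit3 overlaps Mars and Gm4189 on the opposite strand, and another entry also named Ddit3 on the same strand. The member Ddit3 shares 4.56% of its 31-base words with other annotated genes (4.38% under the name Ddit3). Its level, like that of Hsp90b1, is therefore less certain than those of members that share fewer words.

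Xbp1 (ENSMUSG00000020484, chromosome 11, 5520659 to 5525893, plus strand) encodes the factor activated by Ern1 splicing, and a level per gene does not separate spliced from unspliced mRNA. It was 7.19, 4.46 and 21.9 FPKM in the 10-month controls and 22.0, 3.65 and 19.8 FPKM in the transgenic libraries. At 3 months it was 12.4, 17.6 and 22.6 FPKM in controls and 19.2, 2.92 and 17.2 FPKM in transgenic libraries. Low libraries occurred under both labels. Xbp1 had the largest residual SD of the 10 genes, 1.21 on the log2 scale, and its differences were 0.39 (SE 0.90) at 10 months and −0.77 (SE 0.90) at 3 months.

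Herpud1 (ENSMUSG00000031770, chromosome 8, 94386438 to 94395377, plus strand) encodes a membrane protein of the complex that sends misfolded proteins out of the ER for degradation. The genotype groups overlapped at both ages. At 10 months it was 35.3, 12.5 and 27.3 FPKM in controls and 30.0, 20.4 and 28.5 FPKM in transgenic libraries. At 3 months it was 18.2, 16.8 and 16.7 FPKM in controls and 18.7, 10.9 and 16.3 FPKM in transgenic libraries. In the transgenic libraries all 3 values at 10 months lay above all 3 at 3 months, a log2 difference of 0.79 (SE 0.36, unadjusted p = 0.0519, adjusted p = 0.974 in limma). Herpud1 overlaps the opposite-strand gene Gm15890.

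Of the 20 genotype differences of the 10 genes at both ages, 19 moved by over 1.5 times when some single library was left out, and the exception was Hspa5 at 10 months. Over the 10 genes, the log2 difference at 10 months was negative for 7 and positive for 3, with a median of −0.38 against 0.01 over all genes tested, of which 48.9% were negative. Unadjusted p-values under 0.05 were found for Hspa5 and Calr, 2 of 10, against 4.40% of all genes. At 3 months 6 were negative and 4 positive, with a median of −0.12 against 0.02, and none had an unadjusted p under 0.05 in limma, against 3.39% of all genes. The genotype comparisons of the 2 ages share no library, only the estimate of the spread. For the change of the genotype difference with age, limma called no member (5 genes in all, 0.0508%), and Hspa5 alone of the 10 had an unadjusted p under 0.05, as did 3.32% of all genes. That change was negative for 5 of the 10, against 51.1% of all genes.

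**Figure D3:**
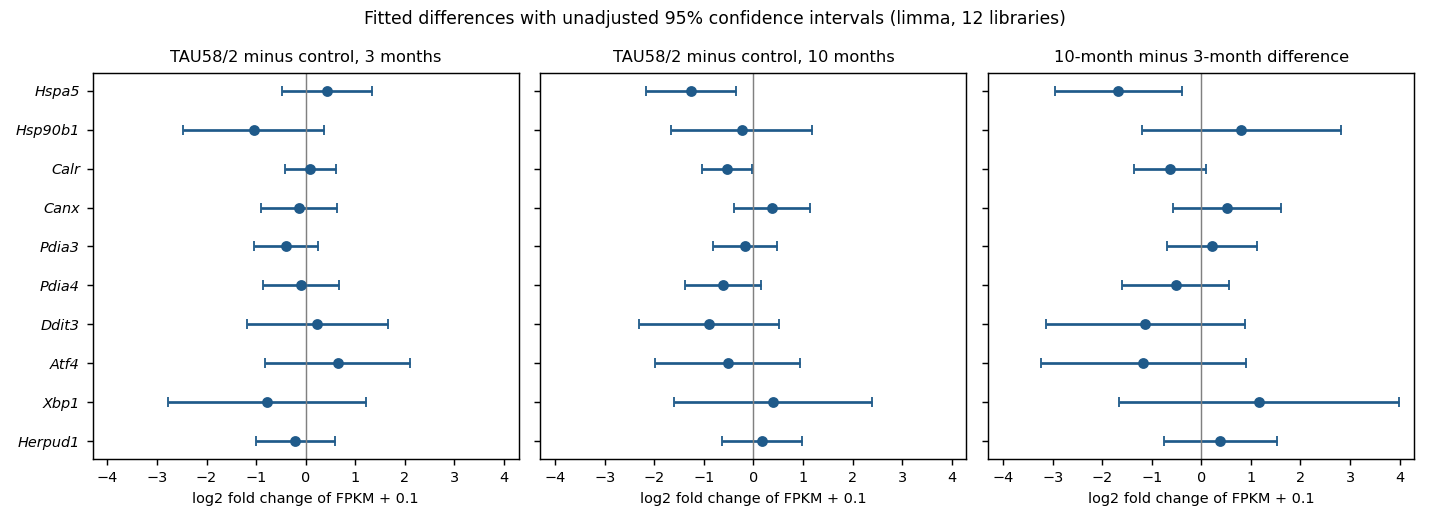
Differences of the 10 genes on the log2(FPKM + 0.1) scale with unadjusted 95% intervals from limma, for the transgenic minus control difference at 3 months, at 10 months, and for the 10-month minus the 3-month difference. At 10 months the intervals of Hspa5 (−2.16 to −0.35) and Calr lie under 0, at 3 months every interval spans 0, and the interval of Xbp1 is the widest in each panel.

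With age, limma called no member in either label, with 1 of 10 at an unadjusted p under 0.05 in each (Hspa5 in controls, Ddit3 in transgenic libraries), against 4.19% and 4.31% of all genes. Over all genes it called 3 in controls, 0.0305%, and 2 in transgenic libraries, 0.0203%. In controls 7 of the 10 log2 differences were positive, with a median of 0.26, and the groups overlapped for all 10 genes, while 10.1% of all genes did not overlap, 3.25% lower and 6.80% higher. Negative differences made up 43.3% of all genes. In transgenic libraries 6 were negative, with a median of −0.06, and the groups of Hspa5 and Herpud1 did not overlap, Hspa5 lower and Herpud1 higher. Of all genes 45.5% were negative and 9.43% did not overlap, 3.65% lower and 5.78% higher. These age comparisons share libraries with the genotype comparisons, and each age comes from its own deposited table, so age and table cannot be told apart.

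The variation between libraries did not run alike through the set. Each library's level was set against the gene's median over the 12 libraries. Control 1 at 10 months was the highest library for Hspa5, Calr, Pdia3, Pdia4 and Herpud1, with a median log2 ratio of 0.35 over the 10 genes, yet the lowest for Canx. Transgenic 2 at 10 months had the lowest median, −0.51, with only 1 of the 10 genes above its median. Transgenic 2 at 3 months was the lowest library for Hsp90b1, Xbp1 and Herpud1.

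**Figure D4:**
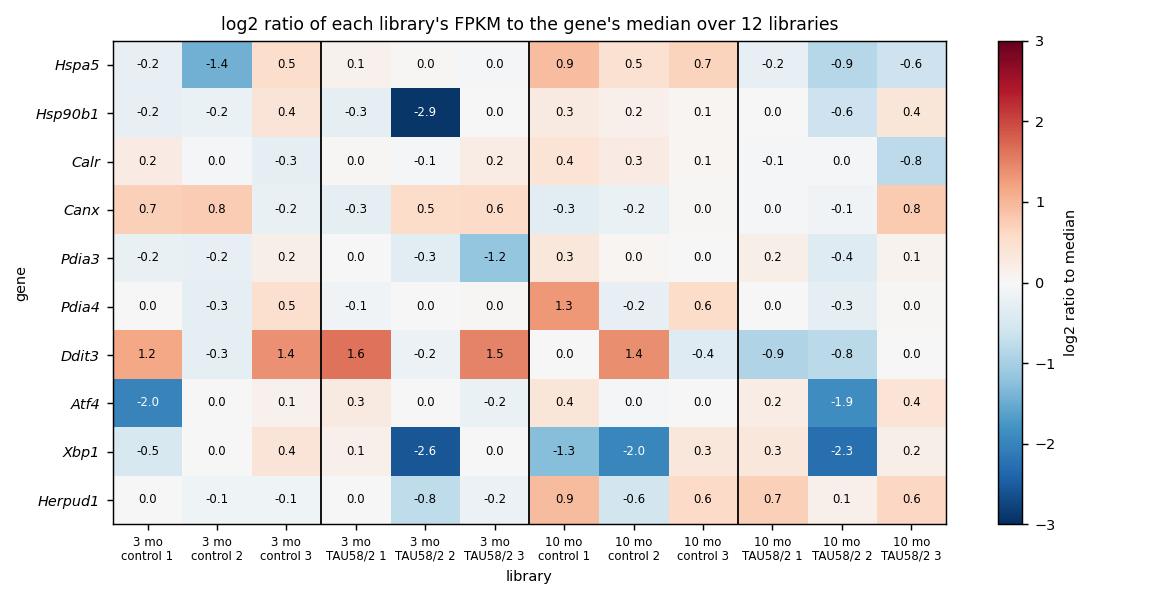
Log2 ratio of each library's FPKM to the gene's median over all 12 libraries, for the 10 genes (rows) and the libraries (columns, grouped by age and label). The Hspa5 row is positive in all 3 controls at 10 months and negative in the 3 transgenic libraries, and the deepest values belong to single libraries, such as Hsp90b1 in 3-month transgenic 2.

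By mean FPKM over the 12 libraries the order was Calr at 87.4, Atf4 at 85.2, Pdia3 at 64.6, Hspa5 at 56.4, Hsp90b1 at 55.6, Canx at 41.8, Herpud1 at 20.97, Xbp1 at 14.2, Pdia4 at 13.6 and Ddit3 at 6.48 FPKM. Neighbours in this order were compared by an exact sign-flip permutation test of the log2 ratio over the 12 libraries, two-sided, with adjustment over 9 pairs. The pairs and their direction were taken from these same libraries, which span 4 groups. The p-values therefore describe how evenly a ratio held over these libraries and are no independent test of the order. Canx stood above Herpud1 in 11 of 12 libraries (mean log2 ratio 1.02, adjusted exact p = 0.0132). Pdia4 stood above Ddit3 in 10 of 12 (mean log2 ratio 1.28, adjusted exact p = 0.0154). Herpud1 over Xbp1 missed the threshold (adjusted exact p = 0.0557), and the 6 other pairs had adjusted exact p-values from 0.369 to 0.891. Among the transcription factors, Atf4 mRNA had a mean near those of the chaperones, Xbp1 lay beside Pdia4, and Ddit3 had the lowest mean.

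The level of Hspa5 was also compared with each of the other 9 genes over the 12 libraries. The permutations ignored the 4 groups, and those within ages ignored the genotype label. Their p-values therefore do not separate differences between groups from covariation between animals. None of the 9 relations passed the threshold after adjustment. Pdia4 had the highest correlation, with a Pearson r of 0.705 (permutation p = 0.0105, adjusted p = 0.0948) and a Spearman rho of 0.643 (permutation p = 0.0285, adjusted p = 0.128). Its r was 0.604 without the 2 libraries farthest from the Hspa5 median, 10-month control 1 and 3-month control 2. Within ages r was 0.767 at 3 months (exact p = 0.165) and 0.731 at 10 months (exact p = 0.0931). Canx ran the other way, with r of −0.620 (permutation p = 0.0328, adjusted p = 0.148), rho of −0.664 (permutation p = 0.0216, adjusted p = 0.128) and r of −0.404 without the same 2 libraries. Its r within ages was −0.680 at 3 months (exact p = 0.0889) and −0.541 at 10 months (exact p = 0.267). For the other 7 genes r ranged from −0.04 for Xbp1 to 0.39 for Calr. Of 4523 other genes whose overall mean reached 5 FPKM, the 5 with the highest r to Hspa5 were BC037034 at 0.951, Dhx15 at 0.854, Fez1 at 0.812, Tmem151b at 0.797 and Scamp4 at 0.790 over the 12 libraries. This is a description of rank among many genes that share libraries and carries no test.

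Around these 10 genes, 93 further genes of ER folding, degradation and stress signalling were listed in 7 groups, and 79 had enough signal to be tested. At 10 months limma called none, with 3 at an unadjusted p under 0.05, against 4.40% of all genes. There were 41 negative and 38 positive differences with a median of −0.01, and 48.9% of all genes were negative. It again called none at 3 months, with 3 at an unadjusted p under 0.05, against 3.39% of all genes. There were 44 negative and 35 positive differences with a median of −0.03, and 47.1% of all genes were negative. The shares of 48.9% and 47.1% also stand beside the counts per group below. Groups did not overlap at 10 months for 8 lower genes, 10.1% of the 79 against 3.89% of all genes, and for 6 higher genes, 7.59% against 4.37%. At 3 months there were 2 lower and 2 higher genes, 2.53% each, against 3.54% and 4.44%. The lists were chosen with earlier results of these data known, so these shares are descriptions and no independent test. Some separations at 10 months were slight. Psat1 was 9.55 FPKM in transgenic 2 and 9.52 FPKM in control 2, and Wars 26.2 FPKM in transgenic 3 and 26.4 FPKM in control 2. Between ages limma called none of the 79 under either label. An unadjusted p under 0.05 was found for 4 in controls and 3 in transgenic libraries, against 4.19% and 4.31% of all genes.

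Many of the single genes below rest on few libraries. Of 42 genotype differences chosen for their p-values, 33 moved by over 1.5 times when some single library was left out, and 18 did so under another pseudocount, scaling or weighting.

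Among lumenal chaperones and co-chaperones, 8 of 11 differences were negative at 10 months and the median was −0.08. At 3 months 8 of 11 were negative as well, with a median of −0.11. Sdf2l1, which works with an Hsp40 partner of Hspa5, was 20.3, 9.24 and 11.2 FPKM in controls and 5.89, 3.54 and 6.55 FPKM in transgenic libraries, with no overlap. Its log2 difference was −1.298 (SE 0.40, unadjusted p = 0.00872, adjusted p = 0.969 in limma), and at 3 months it was −0.29 (SE 0.40). Leaving out any library kept the 10-month value between −1.53 and −0.97. Hyou1, a large Hsp70 relative that recharges Hspa5 with ATP, was 9.06, 10.3 and 7.81 FPKM in controls and 7.54, 7.01 and 5.04 FPKM in transgenic libraries, a difference of −0.48 (SE 0.23), or −0.30 without transgenic 3. Manf was above 1 FPKM only in 10-month control 1 (32.1 FPKM) and 3-month control 2 (14.4 FPKM), so its difference of −2.24 (SE 2.07) rests on single libraries. At 3 months Dnajb11 and Serpinh1 differed by 0.29 each (SE 0.32 and 0.38), and Dnajb11 by 0.0325 without control 1.

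In the oxidative folding group 5 of 9 differences were negative at 10 months. Pdia6, a disulfide isomerase that binds Hspa5, was 23.4, 20.9 and 18.8 FPKM in controls and 15.5, 16.1 and 16.5 FPKM in transgenic libraries, a difference of −0.39 (SE 0.19, unadjusted p = 0.0684) with no overlap. P4hb, the main disulfide isomerase, differed by −0.44 (SE 0.38), or by −0.14 without transgenic 2. Txndc12 differed by −0.44 (SE 0.43), or by −0.18 without transgenic 3. At 3 months Qsox1, a sulfhydryl oxidase, was 1.25, 1.04 and 1.02 FPKM in controls and 1.86, 1.90 and 1.87 FPKM in transgenic libraries. The difference of 0.72 (SE 0.31, unadjusted p = 0.0428) had an adjusted p of 1 in limma and was 0.45 with a pseudocount of 1. At that age 7 of the 9 genes were positive. Txndc12 and P4hb stood at 0.58 (SE 0.43) and 0.46 (SE 0.38) at 3 months, or at 0.28 without transgenic 1 and 0.19 without control 1.

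The glycoprotein folding cycle, in which Calr and Canx act, had 5 of 7 negative differences at 10 months and a median of −0.44, and its groups all overlapped. At 3 months 3 of 7 were negative, with a median of 0.07. Mogs, the glucosidase that starts glucose trimming, differed by −1.35 (SE 0.71) at 10 months and −1.23 (SE 0.71) at 3 months, and came as close to 0 as −0.94 and −0.78 with a library left out. Lman1, a cargo receptor, differed by −0.44 (SE 0.57), or −0.06 without transgenic 3, and the mannosidase gene Man1b1 by 0.27 (SE 0.26). At 3 months Uggt1, the sensor of glycoprotein folding, was 0.0103, 1.74 and 3.03 FPKM in controls and 2.52, 2.29 and 3.34 FPKM in transgenic libraries. Its difference of 1.69 (SE 1.36) rests on control 1, was 0.21 without it and 0.72 with a pseudocount of 1. Prkcsh, a glucosidase subunit, differed by 0.15 (SE 0.16).

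ER-associated degradation, the pathway of Herpud1, had 7 negative and 8 positive differences among 15 genes at 10 months, and 9 and 6 at 3 months. Edem1, which extracts glycoproteins from the folding cycle, was 0.0082, 0.0219 and 1.83 FPKM in controls and 2.00, 2.49 and 2.68 FPKM in transgenic libraries. The difference of 3.07 (SE 1.16, unadjusted p = 0.0241, adjusted p = 0.969 in limma) comes from levels close to 0, and at 3 months it was 2.59 (SE 1.16). These sizes depend on the pseudocount: with one of 1 they were 1.24 and 0.91, with one of 0.01 they were 4.54 and 4.02. Syvn1 and Sel1l, the ubiquitin ligase Hrd1 and its partner, were both lower without overlap at 10 months, by −0.44 (SE 0.32) and −0.84 (SE 0.59), as were Ube2g2 and Ubxn4. Ube2j1, a ubiquitin-conjugating enzyme, differed by 0.55 (SE 0.25). Derl1 was 18.8, 17.8 and 17.1 FPKM in controls and was listed at 0 in transgenic 1 and 2 but at 19.9 FPKM in transgenic 3, so its value is that of single libraries. At 3 months Sel1l differed by −1.16 (SE 0.59), or −0.55 without transgenic 1.

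Of the stress sensors, Eif2ak3 (PERK) differed by −1.06 (SE 0.61), Atf6 by −2.08 (SE 1.298) and Atf6b by −0.42 (SE 0.23) at 10 months, none with an unadjusted p under 0.05 in limma. Without transgenic 3, which was the lowest library of all 3 genes at that age, these were −0.38, −1.06 and −0.14. Atf6 ranged from −3.11 to −0.92 over the other alternatives. Ern1 was under 0.1 FPKM in every library and was not tested. At 3 months Mbtps2 and Mbtps1, the proteases that cleave Atf6, differed by 0.81 (SE 0.74) and −0.29 (SE 0.34), and Eif2ak3 by −0.48 (SE 0.61). Without single libraries these came as close to 0 as −0.15 for Mbtps2, with its sign turned, −0.08 for Mbtps1 and −0.06 for Eif2ak3. In the integrated stress response group 10 of 19 differences were negative at 10 months and the median was −0.01, with 13 of 19 negative at 3 months and a median of −0.03. Asns, the asparagine synthetase gene raised by Atf4, differed by 0.19 (SE 0.18), Psat1 by 0.55 (SE 0.43) and Mthfd2 by −1.08 (SE 1.04). Psat1 was 24.4 FPKM in transgenic 3 and 9.55 to 9.65 FPKM in the other transgenic libraries, and without transgenic 3 the differences of Psat1 and Asns were 0.10 and 0.08. The Mthfd2 difference turned to 0.39 without transgenic 2. At 3 months Psat1 differed by 0.71 (SE 0.43), Vldlr by −1.55 (SE 0.95) and Sesn2 by 1.52 (SE 1.25). Over libraries left out these ranged from 0.46 to 1.18, from −2.42 to −0.39 and from −0.19 to 2.59. Trib3 and Atf3, further genes of this response, were under 1 FPKM in every library.

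The translocon and signal peptide processing group, which brings proteins into the ER, had 9 of 12 positive differences at 10 months and a median of 0.19, against 6 of 12 at 3 months. Tram1 was 4.202, 5.77 and 6.87 FPKM in controls and 10.6, 7.13 and 7.16 FPKM in transgenic libraries, a difference of 0.56 (SE 0.24, unadjusted p = 0.0455, adjusted p = 0.969 in limma), or 0.37 without control 1 or transgenic 1. Ssr3, a subunit of the translocon-associated complex, was higher without overlap at both ages, by 0.24 (SE 0.14) at 10 months and 0.21 (SE 0.14) at 3 months. Sec11a, a signal peptidase subunit, differed by 0.52 (SE 0.33) at 10 months, or 0.30 without control 2. Other subunits of the Ssr3 complex, Ssr1 and Ssr2, stood at −0.62 (SE 0.47) and −0.58 (SE 0.41) at 3 months, or at −0.11 without transgenic 3 and −0.36 without control 3.

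**Figure D5:**
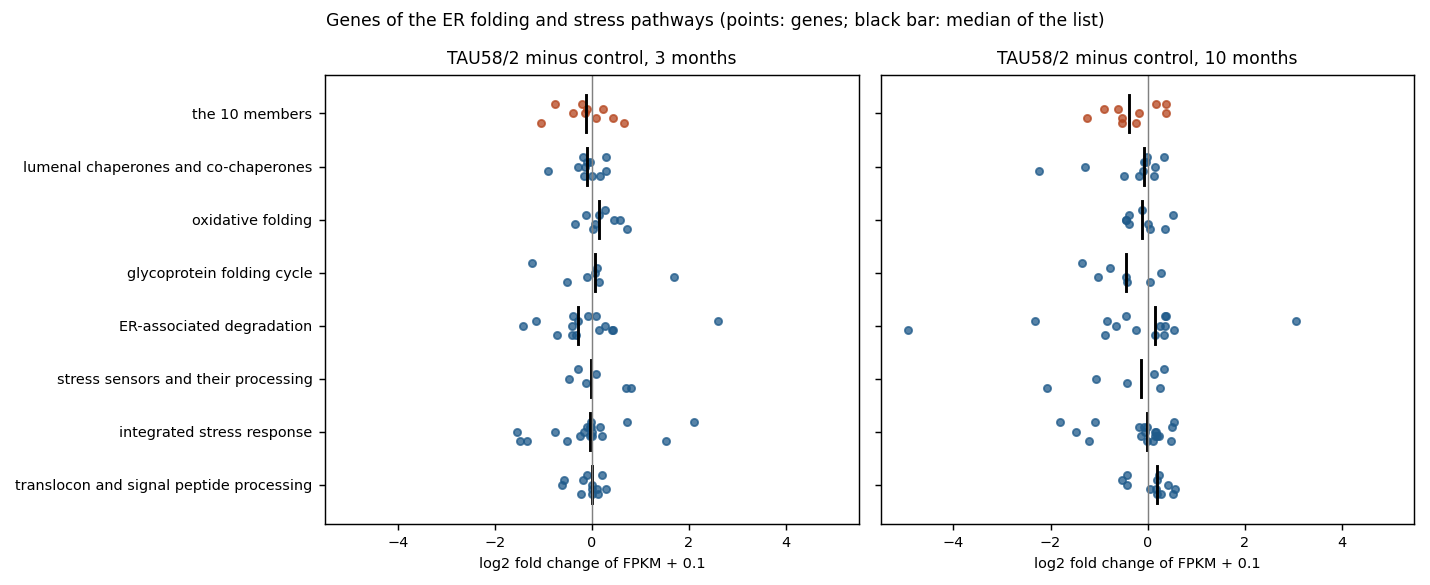
Log2 differences between transgenic and control libraries at 3 and 10 months for the 10 genes (red) and for 79 tested genes of the 7 pathway groups (blue). Each point is a gene and black bars are medians. At 10 months the 10 genes have a median of −0.38, the glycoprotein folding cycle −0.44 and the translocon group 0.19, and no gene shown was called at either age.

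The promoter element was set beside these values. Over all genes tested, 10 held an exact ERSE, namely Hspa5, Hsp90b1, Calr, Canx, Syvn1, Pdia6, Creld2, Dnajc3, Adcy3 and Zfp57. At 10 months 8 of the 10 differences were negative with a median of −0.40, against 48.9% and 0.01 over all genes. Here limma called none, with 3 at an unadjusted p under 0.05 (Hspa5, Calr and Adcy3), against 4.40% of all genes. At 3 months 6 were negative with a median of −0.12, against 47.1% and 0.02 over all genes. With 1 mismatch allowed, 112 genes were tested and the 10-month median was −0.07. Of these, the 96 genes outside the 10 members and the pathway groups had 52 negative differences and a median of −0.03, near that of all genes. Of the 10 exact matches, 8 are members or genes of the pathway groups, and only Adcy3 and Zfp57 lie outside them. These counts therefore mostly repeat values already given or counted above.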

How the data were processed

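RNA from the cortex of 12 mice was made into stranded libraries after ribosomal RNA depletion, per the labels' protocols. The deposited tables, 1 per age, hold FPKM per gene and library, made by the authors. The submitters' processing notes name the builds mm10 and GRCm38 and the tools HISAT2 (2.0.4), StringTie (1.3.0), SAMtools and R (3.4.2). Not given in the sources used here: annotation and strand setting. The authors' tables also hold a fold (a ratio), its log2 value, a p-value and a q-value. The authors' test is not named in the file headers. Depth is unknown, so no counting interval is given.

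FPKM were analysed as log2(FPKM + 0.1), a scale that understates changes of low genes. A gene was tested if any group mean reached 1 FPKM, which kept 9846 of 48526. Group means were estimated from the 12 libraries together by limma 3.58.1 under R 4.3.3 (eBayes with trend and robust), with Benjamini-Hochberg adjustment over all genes and a threshold of 0.05. Both tables entered 1 fit, on the untested assumption that neither was scaled within itself. The fit was tested on simulated data with independent normal noise and changes planted only in well-expressed genes of low spread. That simulation held no outlying single libraries, label mismatch or transcripts of other tissues. It therefore does not show how the fit behaves where these occur. Correlations used 100000 permutations, and within ages exact ones.

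The members, pathway lists and markers were chosen with earlier results of these data known. Besides the members, the text names up to 3 genes per pathway list and age with the smallest p and the 5 genes most like Hspa5. It also names some, not all, of the pathway genes whose groups did not overlap, and genes with an ERSE. The last kinds and those at or near 0 were named after their values were seen. The result of 1 pathway gene is counted in its group but not reported here. Gene positions and shared 31-base words come from GENCODE M21, and promoters from RefSeq (GRCm38.p6). Alternatives were other pseudocounts, filters, scalings and fits, and leaving out each library.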

Additional observations from a re-analysis of the deposited data

How the results depend on the processing

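No member was called in any comparison, and no pathway gene in the genotype comparisons, under any alternative run, while calls over the whole table ranged from 0 to 8 at 10 months and from 2 to 12 at 3 months. With the replicate block 0 members were called in each comparison, and the Hspa5 difference at 10 months had an adjusted p of 0.979. For the replicate numbers, correlations were taken on deviations from each gene's group mean, between control and transgenic libraries of the same age. These ranged from −0.123 to 0.00551 for same-numbered libraries and from −0.0923 to 0.14 for differently numbered ones. Whether the numbers pair the samples was not tested. Pseudocounts, filters, scalings, weights and separate fits changed no sign, but moved 3 of 20 genotype differences of members and 18 of 42 of named pathway genes by over 1.5 times. For Hspa5 at 10 months they gave −1.28 to −1.13. Leaving out single libraries reversed 26 results, and the cause was not tested. At 10 months the range over libraries left out was −0.463 to 0.0269 for Hsp90b1, −0.282 to 0.000314 for Pdia3, −0.93 to 0.21 for Atf4, −0.10 to 1.22 for Xbp1, −0.26 to 0.49 for Herpud1, −0.0692 to 0.459 for Man1b1 and −1.97 to 0.39 for Mthfd2. At 3 months it was −0.10 to 0.88 for Hspa5, −0.0403 to 0.230 for Calr, −0.45 to 0.14 for Canx, −0.26 to 0.11 for Pdia4, −0.27 to 0.80 for Ddit3, −0.0356 to 1.03 for Atf4, −1.25 to 0.0946 for Xbp1, −0.366 to 0.0180 for Herpud1, −0.15 to 1.37 for Mbtps2 and −0.19 to 2.59 for Sesn2. For the change with age in the genotype difference it was −0.11 to 1.33 for Hsp90b1, −0.12 to 0.46 for Pdia3 and −0.0526 to 0.692 for Herpud1. For age in transgenic libraries it was −0.353 to 0.0906 for Canx, −0.103 to 0.0519 for Pdia4, −0.85 to 0.30 for Atf4 and −0.63 to 1.06 for Xbp1. Correlations with Hspa5 ranged from −0.262 to 0.0911 for Xbp1 and −0.15 to 0.25 for Herpud1. The number of correlations past the threshold ranged from 0 to 1, with Pdia4 past it without 10-month control 2 (r = 0.815, adjusted permutation p = 0.0136) and Canx without 10-month transgenic 2 (r = −0.767, adjusted permutation p = 0.0330). With 3 libraries per group and depth unknown, small differences were not detectable, and large ones could be missed too. The median SE of a genotype difference over all genes was 0.585 on the log2 scale. At 10 months even −1.25 for Hspa5 and −1.298 for Sdf2l1 were not called. The absence of calls therefore does not exclude differences of that size.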
